A study of Mus musculus with 6 samples.

Results

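The genes described are 10 markers of resident macrophages and chains of complement C1q: Csf1r, Adgre1, Aif1, Mrc1, Cd68, Cd14, Lyz2, C1qa, C1qb and C1qc. They were measured in the fundic gastric mucosa, the acid-secreting lining of the stomach, of Lasp1 knockout and wild type mice. Members were found by gene symbol in the platform annotation, or by the current symbol of the same gene identifier. This gave 9 of the 10 genes, out of 19057 genes named on the array, and 16 of its 45281 probes. Cd68, a lysosomal glycoprotein of macrophages, had no probe named in the annotation used here and was not analysed.

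The series holds 6 Illumina bead arrays, 3 of Lasp1 knockout and 3 of wild type mucosa. All samples came from mice of the C57Bl/6Ncr strain aged 3 months, and total RNA was labelled as biotinylated cRNA. Lasp1 encodes an actin-binding LIM and SH3 domain protein of acid-secreting parietal cells, and its deletion is the only difference between the groups that the labels give. How the allele was made, and whether each array held 1 mouse or a pool, is not stated in the sources used here. The p-values therefore measure the spread among these 6 samples, which may be technical.

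Macrophages are phagocytes that live in the connective tissue of the stomach wall, between and beneath the glands. They depend on signals through the CSF1 receptor and take up dying cells and microbes. C1q, which in mice is made largely by macrophages, is the recognition part of the classical complement pathway. Each C1q molecule is built from A, B and C chains, the products of C1qa, C1qb and C1qc. In whole mucosa, fewer macrophages and less RNA per macrophage cannot be told apart.

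Values are the deposited linear intensities, which the authors scaled so that the median probe of every array reads 1000. Background had not been subtracted: 26 probes of Y-linked genes reached 1061 to 1212 on the 6 arrays, while Xist read 55746 to 88070. The brightest Y-linked probe of each array is used here as its background level, and between 35.8% and 45.8% of probes lay above it. Folds of dim probes are understated for this reason. The brighter part of the array was tested, 22640 probes with a mean log2 intensity over that of the median probe. These included 12 of the 16 member probes, at least 1 for each of the 9 genes, and the other 4 did not rise above background on any array. Each gene is led by its brightest probe, and differences are log2 values of knockout minus wild type.

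Lasp1 itself read 88521, 111002 and 89823 on knockout replicates 1 to 3, and 270957, 275068 and 177315 on wild type replicates 1 to 3, by its brightest probe. All knockout arrays were below all wild type arrays, and signal remained in the knockout, at a log2 difference of -1.30 (SE 0.21, limma adjusted p = 0.994). Some arrays stood apart by transcripts of other tissue. Summed squamous epithelial markers read 1042835 on knockout replicate 1 and 615874 on wild type replicate 2, against 22264 to 39895 on the other 4 arrays. Summed pancreatic acinar markers read 467003 on knockout replicate 3 and 5052049 on wild type replicate 3, against 110931 to 138389 elsewhere. Arrays numbered 1 to 3 in their titles are knockout replicate 1 and wild type replicates 1 and 2, and those numbered 4 to 6 are the rest. The labels do not say what the number means. Each set holds both genotypes, so values are also given inside each set and from a fit with the set as a blocking term.

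Across the members no difference between the genotypes passed the test. None of the 12 tested probes reached an adjusted p under 0.05 (limma, adjusted over all 22640 probes, range 0.994 to 0.997), where 0.00883% of all probes did. None reached an unadjusted p under 0.05 either, against 1.73% of all probes (1.63% higher in the knockout). By brightest probe 8 of 9 genes read higher in the knockout and 1 lower, with a median log2 difference of 0.19. Over all tested probes 76.9% read higher and the median was 0.10. After quantile normalization the member median was 0.06 with 7 of 9 higher, where all probes had a median of 0.0029.

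**Figure D1:**
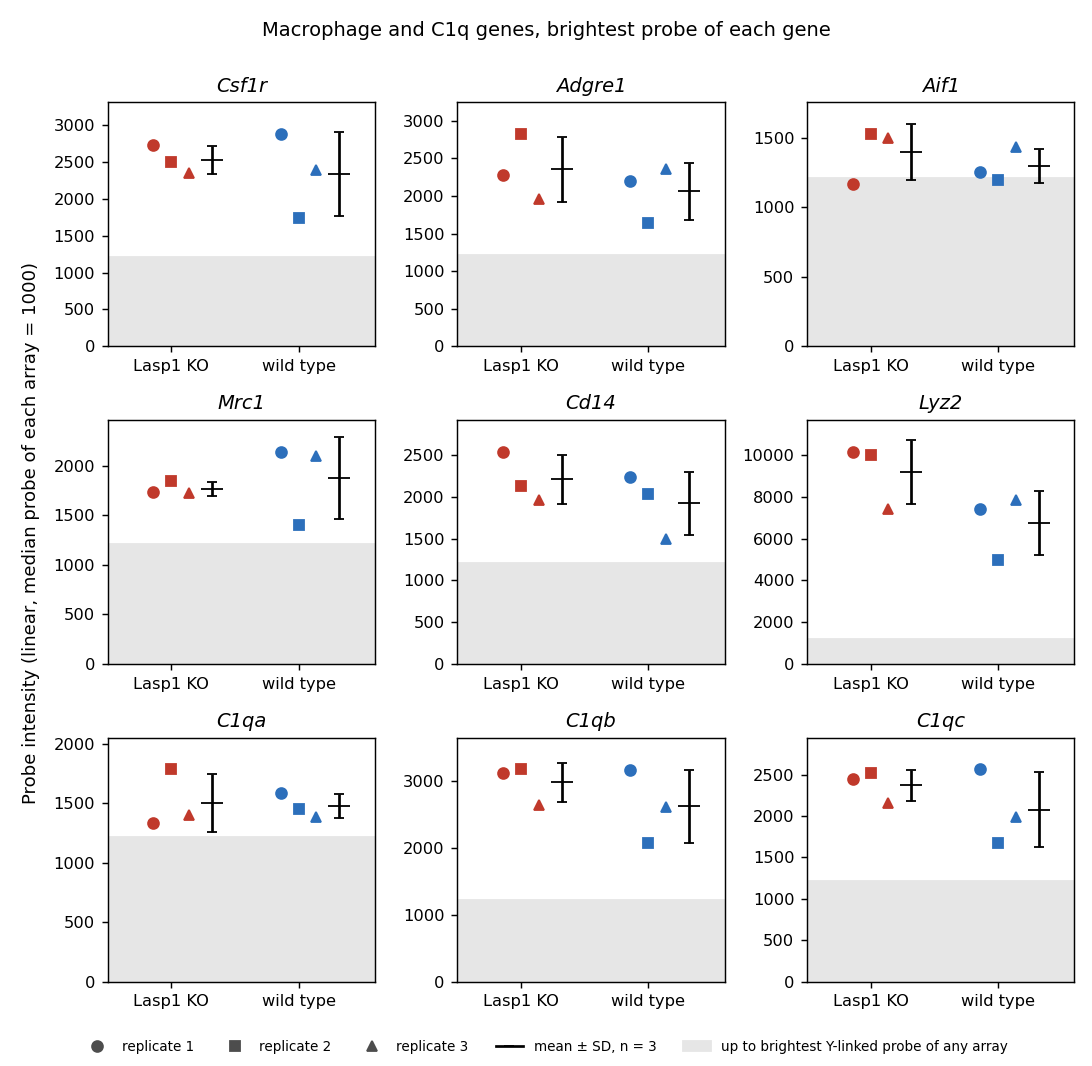
Intensity (linear axis from 0) of the brightest probe of each of the 9 genes on each array, with Lasp1 knockout on the left and wild type on the right of every panel. Symbols mark replicates, black bars give mean ± SD (n = 3 each), and the grey band ends at 1212, the brightest Y-linked probe of any array. Every gene has overlapping groups, wild type replicate 2 is the lowest array for 6 of 9 genes, and Aif1 dips into the band only on arrays whose own background level was lower.

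The receptors and surface markers that define macrophages were read above background at modest intensity. Csf1r, the receptor for CSF1 and IL-34 on which macrophages depend, read 2724, 2500 and 2342 on knockout replicates 1 to 3, and 2872, 1734 and 2393 on wild type replicates 1 to 3. The knockout arrays lay within the wild type range, and the log2 difference was 0.14 (SE 0.20, 95% interval -0.33 to 0.61, limma adjusted p = 0.994). Its other probe, ILMN_1230485, stayed at 765 to 848 in the knockout and 727 to 1065 in wild type, all at background.

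Adgre1 encodes F4/80, the adhesion receptor used to recognise mouse macrophages. Its brightest probe, ILMN_1216880, read 2285, 2822 and 1962 on the knockout arrays, against 2199, 1636 and 2357 on the wild type arrays. Knockout replicate 2 was the highest array and wild type replicate 2 the lowest, and the others overlapped. The log2 difference was 0.19 (SE 0.20, 95% interval -0.28 to 0.66). A second probe, ILMN_2847787, gave 1852, 2417 and 2068 in the knockout, against 1934, 1454 and 1896 in wild type, a log2 difference of 0.27 (SE 0.17). The third Adgre1 probe was at background, between 736 and 948 on all arrays.

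Aif1 encodes IBA1, a calcium-binding protein of macrophages that bundles actin. It was the dimmest member: its brightest probe read 1165, 1524 and 1495 in the knockout, against 1255, 1197 and 1434 in wild type. All 6 values exceeded that array's background level, by as little as 1197 against 1189 on wild type replicate 2. It differed by 0.10 on the log2 scale (SE 0.15), and a second Aif1 probe differed by 0.0076 (SE 0.12).

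Mrc1, the mannose receptor CD206 of tissue-resident and alternatively activated macrophages, was the only member that read lower in the knockout. It gave 1736, 1850 and 1719 on the knockout arrays, against 2140, 1402 and 2095 on the wild type arrays. The 3 knockout values lay close together (SD 70.9, n = 3) inside a wider wild type range (SD 413.7, n = 3). The log2 difference was -0.06 (SE 0.18, 95% interval -0.50 to 0.38). Without wild type replicate 2 it was -0.26, which did not pass the limma test either.

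Cd14 is the co-receptor that hands bacterial lipopolysaccharide to the TLR4 complex. It read 2538, 2124 and 1962 in the knockout, against 2233, 2030 and 1499 in wild type. Here wild type replicate 3, the array richest in pancreatic transcripts, was the lowest and knockout replicate 1 the highest. The log2 difference was 0.21 (SE 0.19), with 0.25 among the arrays numbered 1 to 3 and 0.45 among the arrays numbered 4 to 6. Values inside a set rest on 1 array of a genotype against 2 of the other and were not tested.

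TLR4 is the signalling receptor that CD14 serves. Tlr4, by its brightest probe, read 11732, 17960 and 17717 in the knockout, against 9827, 11123 and 10688 in wild type. The groups did not overlap, as for 7.19% of all tested probes, and the log2 difference of 0.56 (SE 0.19) did not pass (limma adjusted p = 0.994, exact two-sided permutation p = 0.1, the smallest that 3 against 3 arrays can give). A second bright Tlr4 probe differed by 0.47 (SE 0.15), and a dim one by 0.04. Ly96, which encodes the MD-2 subunit that binds lipopolysaccharide on TLR4, read 19443, 22073 and 22211 in the knockout, against 18717, 16080 and 14687 in wild type. Its groups did not overlap either, at a log2 difference of 0.37 (SE 0.14, limma adjusted p = 0.994). Among the arrays numbered 1 to 3 the log2 difference was 0.17 for Tlr4 and 0.16 for Ly96, and among the arrays numbered 4 to 6 it was 0.74 for Tlr4 and 0.59 for Ly96. Whether the sets differ was not tested. Of 6 tested genes of the CD14 and TLR4 pathway 5 read higher and none passed. Their median was 0.28, or 0.13 with quantile normalization.

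Lyz2, which encodes lysozyme M, the antibacterial enzyme of macrophages and neutrophils, was the brightest member and had the largest difference among the members. Its brightest probe, ILMN_2939681, read 10164, 10019 and 7409 on the knockout arrays, against 7404, 4999 and 7862 on the wild type arrays. Knockout replicates 1 and 2 were above every wild type array, while knockout replicate 3 fell inside the wild type range. The means were 9197 ± 1551 in the knockout and 6755 ± 1538 in wild type (SD, n = 3 each). The log2 difference was 0.46 (SE 0.22, 95% interval -0.06 to 0.98, limma adjusted p = 0.994, exact two-sided permutation p = 0.2). A second probe, ILMN_1252076, read 2217, 2906 and 2543 in the knockout, against 2171, 1468 and 2052 in wild type. It was the only tested member probe whose groups did not overlap, as for 6.17% of all tested probes in that direction, with a log2 difference of 0.44 (SE 0.19, limma adjusted p = 0.994). The third Lyz2 probe was at background (791 to 911 in the knockout, 727 to 1134 in wild type). Among the arrays numbered 1 to 3 the brightest probe differed by 0.74, and among the arrays numbered 4 to 6 by 0.13. Fitted with a blocking term for the set the difference was 0.44 (limma adjusted p = 0.404), after quantile normalization it was 0.29, and without wild type replicate 2 it was 0.25.

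Lyz1, the neighbouring gene on chromosome 10, encodes lysozyme P, known in mice as the lysozyme of Paneth cells. Its brightest probe, ILMN_2878071, had nearly the same pattern over the arrays as Lyz2. It read 22547, 22283 and 17373 on the knockout arrays, against 16873, 11617 and 16774 on the wild type arrays. The groups did not overlap, as for 6.17% of all tested probes in that direction. The log2 difference was 0.47 (SE 0.19, limma adjusted p = 0.994). After each probe was centred on its own mean over the 6 arrays, the log2 values of Lyz2 and Lyz1 differed by a root mean square of 0.046. Among the 22639 other tested probes none lay closer to Lyz2 than this Lyz1 probe, and none closer to Lyz1 than this Lyz2 probe, before and after quantile normalization. The 2 brighter Lyz2 probes were less alike, with a root mean square difference of 0.20. The other 2 Lyz1 probes lay near background on most arrays and did not share the pattern, apart from 2280 for ILMN_2736867 on knockout replicate 1. Lyz1 and Lyz2 are close paralogs and the probe sequences were not used here, so whether each bright probe reads only its own gene was not tested.

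The sequences before the start sites of both lysozyme genes are shown because the signals of these genes ran alike over the arrays. Each runs 250 bases up to the transcript start in RefSeq (GRCm38.p6), with capitals marking AGGAAG or GAGGAA on either strand. These are letters of the purine-rich sites that ETS factors bind, the family of the macrophage regulator PU.1. Spi1, which encodes PU.1, read 809 to 1006 over the 6 arrays, at background on each, and was not tested. In a global alignment 200 of 248 aligned bases were identical (80.6%), and a CTTCCT stood 99 bases before the start in both.
Lyz2, chr10:117282273-117282522, minus strand: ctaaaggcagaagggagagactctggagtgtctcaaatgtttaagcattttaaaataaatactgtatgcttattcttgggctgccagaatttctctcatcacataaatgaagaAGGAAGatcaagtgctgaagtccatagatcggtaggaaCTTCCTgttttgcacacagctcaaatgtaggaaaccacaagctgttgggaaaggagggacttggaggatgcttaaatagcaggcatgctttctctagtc
Lyz1, chr10:117292869-117293118, minus strand: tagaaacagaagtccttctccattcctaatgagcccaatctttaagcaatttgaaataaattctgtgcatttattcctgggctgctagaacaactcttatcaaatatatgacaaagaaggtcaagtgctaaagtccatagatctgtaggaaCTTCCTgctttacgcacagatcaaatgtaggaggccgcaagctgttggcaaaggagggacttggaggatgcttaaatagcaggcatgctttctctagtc

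The C1q chains are encoded by neighbouring genes on chromosome 4, in the order C1qb, C1qc, C1qa, with no other protein-coding gene between them. C1qb read 3117, 3169 and 2639 on the knockout arrays, against 3158, 2073 and 2613 on the wild type arrays. Wild type replicate 1 was as bright as the highest knockout arrays and wild type replicate 2 was the lowest. The means were 2975 ± 292 in the knockout and 2614 ± 543 in wild type (SD, n = 3 each). The log2 difference was 0.20 (SE 0.18, 95% interval -0.23 to 0.63, limma adjusted p = 0.994).

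C1qc read 2445, 2515 and 2160 on the knockout arrays, against 2564, 1672 and 1987 on the wild type arrays, and the log2 difference was 0.21 (SE 0.18, 95% interval -0.21 to 0.64). The order of the arrays was nearly that of C1qb. Centred on their own means, the log2 values of C1qb and C1qc differed by a root mean square of 0.036 over the 6 arrays, the smallest of the 36 pairs of members (median 0.21). C1qc was the closest of 22639 probes to C1qb, and C1qb the 2nd closest to C1qc. After quantile normalization these ranks were 2nd and 5th. Csf1r was the 12th closest to C1qb, at a root mean square of 0.075, and 6th after quantile normalization.

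C1qa did not share this pattern. It read 1329, 1783 and 1399 in the knockout, against 1584, 1450 and 1386 in wild type, with knockout replicate 1 lowest and knockout replicate 2 highest. On the log2 scale it differed by 0.02 (SE 0.15, 95% interval -0.34 to 0.37). Its root mean square difference from C1qb was 0.21, and it ranked only 5216th among the probes closest to C1qb. C1qa is also the dimmest chain on these arrays, at most 1783 where background reached 1212, and the part of this in its pattern was not tested.

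The sequences before C1qb and C1qc are shown because their signals ran alike over the arrays. They come from the same table, with the same length and the same capitals as for the lysozyme genes. C1qb holds a CTTCCT 52 bases and a GAGGAA 30 bases before its start. C1qc holds overlapping CTTCCT and TTCCTC, 194 and 193 bases before its start, and an AGGAAG at 157 bases. Such letters are common: GAGGAA is found on either strand in 23.3% of 32851 promoters cut to the same length, AGGAAG in 29.5%, and at least 1 of them in 39.2%. A global alignment of C1qb and C1qc matched 129 of 208 aligned bases (62%). It took 84 columns of gaps, against 4 for Lyz2 and Lyz1, and was not compared with alignments of unrelated promoters.
C1qb, chr4:136886201-136886450, minus strand: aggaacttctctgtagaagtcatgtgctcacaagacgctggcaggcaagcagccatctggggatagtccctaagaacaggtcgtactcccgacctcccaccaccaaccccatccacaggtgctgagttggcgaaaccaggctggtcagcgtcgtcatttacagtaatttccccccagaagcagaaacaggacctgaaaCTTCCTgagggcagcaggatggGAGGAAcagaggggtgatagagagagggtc
C1qc, chr4:136892915-136893164, minus strand: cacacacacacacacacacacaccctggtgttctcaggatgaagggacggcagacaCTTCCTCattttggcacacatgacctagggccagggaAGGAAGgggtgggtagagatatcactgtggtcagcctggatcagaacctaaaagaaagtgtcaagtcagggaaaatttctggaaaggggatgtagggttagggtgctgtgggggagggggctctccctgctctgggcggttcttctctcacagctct

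**Figure D2:**
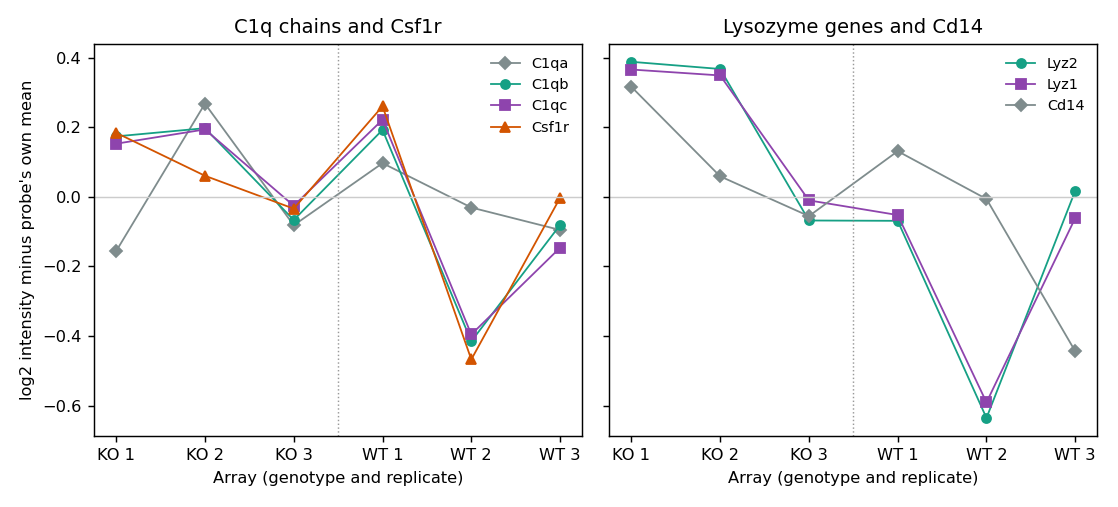
Log2 intensity of the brightest probe of each gene, centred on that probe's mean over the 6 arrays (vertical axis), on each array (horizontal axis, knockout left and wild type right of the dotted line). C1qb and C1qc run together with Csf1r and dip on wild type replicate 2, C1qa does not, Lyz2 and Lyz1 nearly coincide, and Cd14 is lowest on wild type replicate 3. Lines only join the values of 1 probe, since replicates have no order.

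With the members left out, the genes whose array pattern was most like the mean of the 3 C1q chains were on none of the gene lists used here. That mean includes C1qa, whose pattern differed from that of C1qb and C1qc. Closest by root mean square difference were Hacd4 (0.03), Stk11ip (0.04), Dusp3 (0.04), Ipo9 (0.05), Rint1 (0.05) and Cdkn2c (0.05), out of 18987 named probes with a median of 0.21. Hacd4 encodes an acyl-CoA dehydratase, Dusp3 a dual-specificity phosphatase, Ipo9 an importin and Cdkn2c a cell cycle inhibitor. The C1q mean was itself lowest on wild type replicate 2 (-0.28). All 6 genes were lowest there too, which follows from how they were chosen. None of the 6 passed the limma test for genotype (adjusted p = 0.994 each), which the choice also favoured.

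Most members had their lowest value on wild type replicate 2. By brightest probe 7 of 9 member genes read lower there than on both other wild type arrays, as did 15.2% of all tested probes. Its median log2 difference from the other wild type arrays was -0.47 over the members and 0.06 over all tested probes (-0.57 and -0.0021 after quantile normalization). Lyz2 read there at 65.5% of the mean of the other wild type arrays, Csf1r at 66.2% and Mrc1 at 66.2%, while C1qa stood at 97.8% and Cd14 at 111.0%. Without this array the member median of knockout minus wild type was 0.05, where all probes had 0.12. The arrays with squamous transcripts were this one, where the centred log2 values of the members averaged -0.32, and knockout replicate 1, where they averaged 0.10. On knockout replicate 1 Lyz2 and Cd14 had their highest value of the 6 arrays, and C1qa and Aif1 their lowest. The longer list of other macrophage genes was lowest on wild type replicate 3 instead, with a mean of -0.31 there and -0.13 on wild type replicate 2. Of its 25 tested genes 15 had their lowest value on wild type replicate 3 and 8 on wild type replicate 2. Fibroblast markers, like the members, averaged lowest on wild type replicate 2, at -0.32, with -0.23 on wild type replicate 3. By gene, 4 of 8 fibroblast markers were lowest on wild type replicate 2, 3 on wild type replicate 3 and 1 on knockout replicate 3. Their sum, to which Dcn gave the most, was 72226 to 98599 on the knockout arrays, and 66374 on wild type replicate 2 against 74791 to 109247 on the other wild type arrays. The part of other tissue in the level of the members was not tested.

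**Figure D3:**
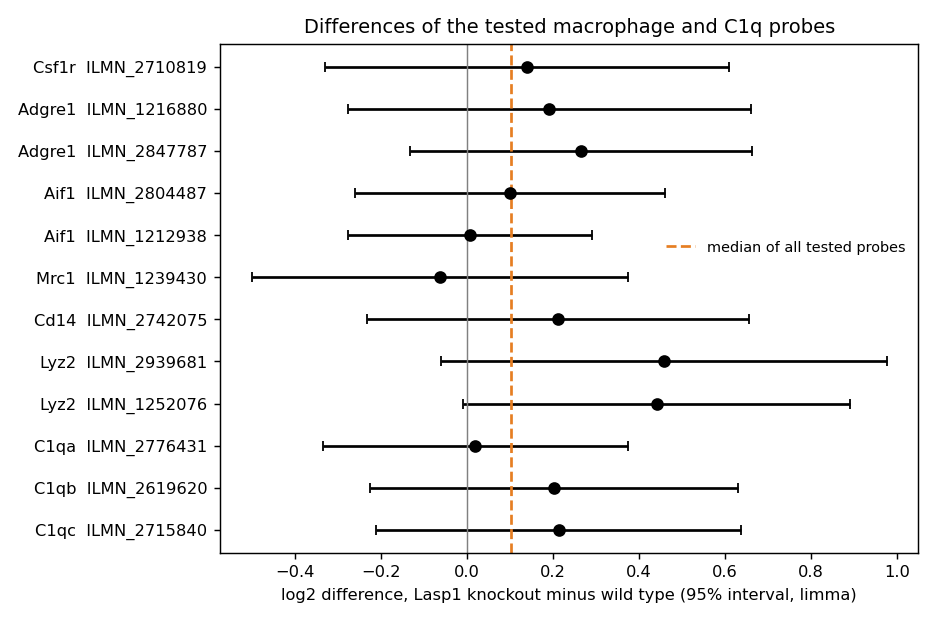
Log2 difference of knockout minus wild type (horizontal axis) with its 95% limma interval for each of the 12 tested member probes, one row per probe. All 12 intervals include 0 and the dashed line, the median of 0.10 over all tested probes.

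The intervals bound what these arrays could show. For Lyz2 the 95% interval ran from 0.96-fold to 1.97-fold of wild type in the knockout, for Csf1r from 0.80-fold to 1.53-fold, for C1qb from 0.86-fold to 1.55-fold and for Mrc1 from 0.71-fold to 1.30-fold. These are folds of intensities that include background. Fitted with a blocking term for the title-number set, no member passed (0.0133% of all probes did), and the member median was 0.15 with 7 of 9 higher, where all probes had 0.17. After quantile normalization with the same block it was -0.08 with 3 of 9 higher, where all probes had 0.0014. Member medians were 0.25 among the arrays numbered 1 to 3 (0.04 over all probes) and 0.13 among the arrays numbered 4 to 6 (0.29 over all probes).

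Other macrophage genes were read as a longer list. Of 38 genes listed, 37 had a named probe and 25 were tested: 24 read higher in the knockout, with a median of 0.17 (20 of 25 and 0.07 after quantile normalization), and none passed. Only 17 of the 37 were above background on all arrays. Others were far brighter than the members: Ctsb read 336038 to 408290, where Lyz2, the brightest member, reached 10164. Which cells of the mucosa gave these signals was not tested. Macrophage and myeloid markers at or near background included Fcgr1, the high-affinity IgG receptor, at 815 to 1007, Itgam, the integrin CD11b, at 828 to 903, and Siglec1, the sialic acid receptor, at 704 to 904. The 4 genes of smallest p were Fcer1g, Lyve1, Laptm5 and Clec7a. Fcer1g, the shared signalling chain of Fc receptors, read 4341, 4816 and 4115 in the knockout, against 4173, 2961 and 3195 in wild type (log2 0.37, SE 0.16, limma adjusted p = 0.994). Lyve1, a hyaluronan receptor of lymphatic endothelium and some resident macrophages, differed by 0.25 (SE 0.14). Laptm5, a lysosomal membrane protein of blood cells, differed by 0.46 (SE 0.30), and Clec7a, the beta-glucan receptor dectin-1, by 0.32 (SE 0.24). Csf1 and Il34, the ligands of the CSF1 receptor, were not tested, since both stayed near background (881 to 995 and 925 to 1062 in the knockout, 945 to 1061 and 875 to 1020 in wild type).

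The other complement components were mostly dim. Of 24 components listed, 20 had a named probe and 12 were tested, 7 higher and 5 lower in the knockout and none past the threshold, with a median of 0.02 (3 of 12 higher and -0.06 after quantile normalization). The proteases that join C1q in the C1 complex, represented by C1ra and C1rb, were at background. Cfp, which encodes properdin, the stabiliser of the alternative pathway, read 5182, 5950 and 5740 in the knockout, against 5027, 3994 and 4402 in wild type. Its groups did not overlap, as for 7.19% of all tested probes. The log2 difference of 0.33 (SE 0.13) did not pass (limma adjusted p = 0.994). C8a, a chain of the membrane attack complex, was at background on every knockout array (887 to 991) and near it in wild type (1002 to 1121). The C8a groups did not overlap either. Cfb, complement factor B, differed by 0.23 (SE 0.20) and C4bp, an inhibitor of the classical pathway, by 0.21 (SE 0.19). Among complement inhibitors and receptors 9 of 18 were tested, with 6 higher, a median of 0.03 and none past the threshold. The 4 of smallest p were Calr (0.39), the chaperone calreticulin that also binds C1q, Cd55 (0.30), the decay-accelerating factor, Cr1l (0.22), a membrane regulator of C3, and C1qbp (0.37), a mainly mitochondrial protein.

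**Figure D4:**
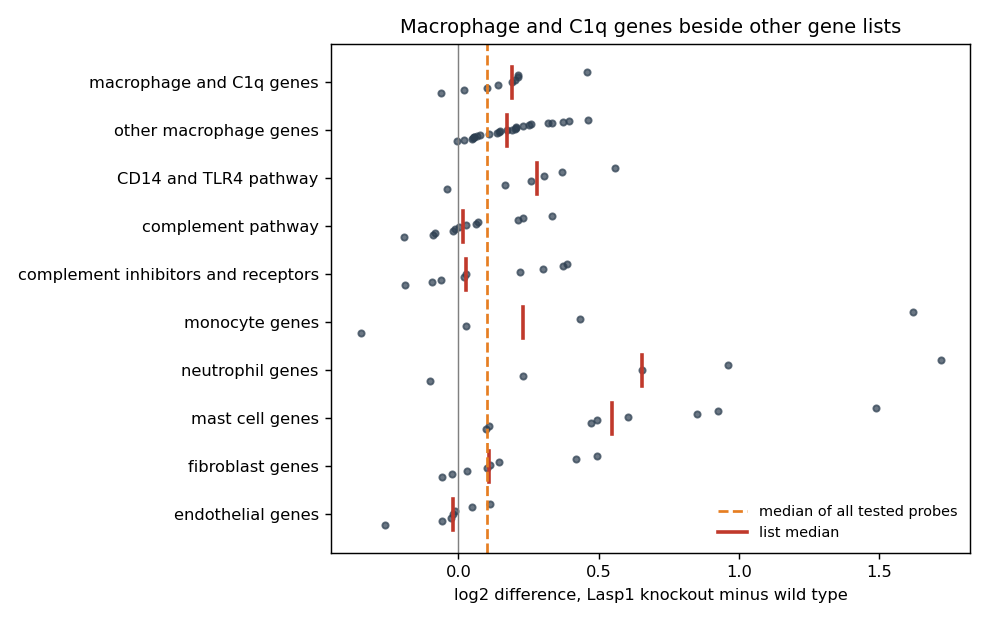
Log2 difference of knockout minus wild type (horizontal axis) for each tested gene of 10 lists, 1 point per gene by its brightest probe (height within a row carries no meaning), with the list median as a red bar and the median over all tested probes, 0.10, as a dashed line. The macrophage and C1q genes lie between -0.06 and 0.46 around a median of 0.19, close to the other macrophage genes at 0.17, while mast cell genes have a median of 0.55.

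Markers of other cells that the mucosa could hold are given beside these values. Monocyte genes had a median of 0.23 (3 of 4 tested genes higher) and neutrophil genes 0.66 (4 of 5 higher), with no neutrophil marker above background on all arrays. The centred log2 values of the neutrophil genes averaged 1.76 on knockout replicate 1, an array with squamous transcripts. They averaged -0.25 and -0.47 on knockout replicates 2 and 3, and -0.69 to 0.21 on the wild type arrays. Mast cell genes had a median of 0.55, with 8 of 8 higher. Dendritic cell (0.09, 1 of 2 higher), Langerhans cell (0.04, 2 of 3), T and NK cell (0.01, 2 of 3), and B and plasma cell genes (-0.12, 1 of 3) rested on few tested genes. Cd207, the defining marker of Langerhans cells, stayed at 927 to 1094 in the knockout and 858 to 955 in wild type. Medians were -0.19 for red blood cell genes (0 of 2 higher), -0.02 for endothelial (2 of 7), 0.11 for fibroblast (6 of 8), 0.09 for adipocyte (2 of 3) and 0.58 for smooth muscle genes (6 of 6). Summed smooth muscle genes read 251975 on knockout replicate 1, against 67435 and 48930 on knockout replicates 2 and 3. They read 38746 to 110694 on the wild type arrays. Parietal (0.04), chief (0.06), and pit and neck cell genes (0.11) lay near the median of all probes. Squamous genes had a median of 0.28 (9 of 10 higher) and pancreatic acinar genes -1.69 (0 of 9). Some medians turned negative after quantile normalization: fibroblast (-0.04, 2 of 8 higher), adipocyte (-0.09, 0 of 2), Langerhans cell (-0.12, 1 of 3) and dendritic cell genes (-0.01, 1 of 2). The other lists of this paragraph kept the sign of their median, with 0.46 for mast cell genes. None of the genes in these lists passed the threshold, and their part in the level of the members was not tested.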

How the data were processed

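Biotinylated cRNA was made with the Ambion MessageAmp kit, per the labels' protocols. The deposited intensity table holds 1 linear value per probe and array, and from the values themselves the authors scaled each array to a median of 1000 with no background subtraction. The sources used here name no scanner, software, filter or genome build. Probes were named from the platform annotation (34885 with 1 gene symbol, 18 with several, 10378 with none, the last 2 kinds left unnamed), and 34807 matched the GRCm38.p6 gene table by identifier. Intensities were log2 transformed. Probes above the median mean were fitted in limma (version 3.58.1, run in R 4.3.3; lmFit, then eBayes) with two-sided p-values adjusted by Benjamini-Hochberg over 22640 probes, with single values also tested by exact permutation. The number of arrays, 3 a genotype, limits the precision. No p is given for any list.

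Members and lists were chosen with earlier results of these data known. The text names all members, Lasp1, Lyz1, Tlr4, Ly96, both CSF1 receptor ligands, the 4 genes of smallest p in 3 lists and the 6 genes nearest the C1q mean. Other names are Fcgr1, Itgam, Siglec1, Spi1, Ctsb, Cd207, C1ra, C1rb, Dcn, S100a8, S100a9, Ltf, Retnlg, Csf3r, Mpo and Chil3. These, the motifs and the likeness of Lyz1 and of single C1q chains were chosen after values or sequences were seen. Alternatives were other normalizations, filters, variance models, array weights, blocks, the mean of a gene's probes and leaving out arrays. Sequences are from RefSeq (6 of 10 members matched). Alignments used Biopython 1.88 and figures matplotlib 3.10.9 in Python 3.11.15.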

Additional observations from a re-analysis of the deposited data

How the results depend on the processing

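None of the 9 member genes passed under 18 of the 19 alternatives run. With array weights 5 did (Lyz2, C1qb, C1qc, Adgre1 and Csf1r, lowest limma adjusted p = 0.0314), with a member median of 0.50 and 1816 probes past the threshold. That fit rests largely on wild type replicate 2, the array lowest in members, with a weight of 38.8 against at most 1.6 elsewhere. Beside it, 2 of 22640 probes passed as reported and 0 with the replicate block, without both arrays with squamous transcripts or without both with pancreatic transcripts. Leaving out 1 array gave 0 to 3 probes, member medians of 0.05 to 0.31 and 7 to 9 members higher. The count fell to 0 without any array but wild type replicate 3. After quantile normalization and blocking on the title-number set, 3 members were higher, the median was -0.0766, and Csf1r (-0.0766), Adgre1 (-0.0944), C1qa (-0.13), C1qb (-0.0236) and Aif1 (-0.13) changed sign. C1qa, at 0.02 as reported, also turned to -0.0498 with quantile and -0.0464 with cyclic loess normalization, -0.0949 with normexp and -0.0004 with the set block. Leaving out 1 array put it between -0.11 (knockout replicate 2 left out) and 0.10 (knockout replicate 1), with -0.0231 when wild type replicate 3 was left out. Csf1r turned to -0.0586 without wild type replicate 2 (0.31 was the highest value with 1 array left out) and -0.12 without both arrays with squamous transcripts. Mrc1 turned to 0.35 with array weights and 0.0492 without both arrays with pancreatic transcripts. It was 0.0447 when wild type replicate 1 was left out and 0.0293 when wild type replicate 3 was, against a lowest value of -0.26 when wild type replicate 2 was. Lyz2, Cd14 and C1qc kept their direction throughout, at 0.16 to 0.85, 0.04 to 0.35 and 0.03 to 0.50. The causes were not tested. Same-numbered arrays deviated from their group means with correlations of 0.04, -0.30 and 0.53 across probes. These values do not decide whether the replicate numbers pair the samples. The replicate block holds 1 array of each genotype per number, so it leaves the differences unchanged by design and cannot decide this either. Signal over background limits Aif1 and C1qa most.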

Other observations

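A few of the neutrophil genes were bright on single arrays. S100a8, a subunit of calprotectin, a protein of neutrophils and of stressed squamous epithelium, read 11748, 875 and 839 on knockout replicates 1 to 3, against 955, 1357 and 901 on wild type replicates 1 to 3. S100a9, its partner, read 18447, 792 and 806 in the knockout, against 996, 3503 and 863 in wild type. For this pair, knockout replicate 1 and wild type replicate 2, the arrays with squamous transcripts, lay above background and the other 4 did not, and the part of squamous tissue in it was not tested. None of the rest of the 11 named neutrophil genes shared this pattern. Ltf was also highest on knockout replicate 1 and wild type replicate 2, but stood above background on knockout replicates 2 and 3 as well. Of these 11 genes 6 were above background on no array, among them the granule gene Mpo at 798 to 941 in the knockout and 803 to 957 in wild type. Csf3r, the G-CSF receptor, was above background on wild type replicate 1 alone. Retnlg, a resistin-like gene, read 1480, 1850 and 984 in the knockout, against 1447, 982 and 1173 in wild type. It was at background on knockout replicate 3 and on wild type replicates 2 and 3, so their order carries no meaning.

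Ltf, which encodes the iron-binding protein lactoferrin, read 16812, 3763 and 3846 in the knockout, against 1077, 5374 and 1172 in wild type. Chil3, a chitinase-like protein of alternatively activated macrophages, read 9226, 2866 and 3249 in the knockout, against 880, 3349 and 1002 in wild type. In both genes wild type replicates 1 and 3 were near background, the other 4 arrays were above it, and the groups overlapped. Mrc1, another gene of alternatively activated macrophages, read 1736, 1850 and 1719 in the knockout, against 2140, 1402 and 2095 in wild type, and did not follow Chil3.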
